A study of Sus scrofa with 9 samples.

Results

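The lysosomal cathepsins CTSB, CTSD, CTSH, CTSK, CTSL and CTSS were followed in the longissimus dorsi muscle of Bama minipigs after long feeding with a high-fat high-sucrose diet. Members were all probes of a porcine Agilent array whose RefSeq accession maps to 1 of these 6 symbols in the pig RefSeq gene table of assembly Sscrofa11.1. That rule found 9 probes among the 43603 non-control probes of the array, and they belong to 4 of the 6 genes: 4 probes of CTSB (NM_001097458), 2 of CTSD (NM_001037721), 2 of CTSH (NM_213929) and 1 of CTSK (NM_214302). No probe was matched to CTSL or CTSS, so these genes have no value here. No cathepsin probe passed the test for a diet difference. The CTSB, CTSD and CTSH means were lower and the CTSK mean slightly higher on the diet. For 1 of the 2 CTSH probes all HFHSD arrays lay below all CD arrays, a separation that 10.9% of all tested probes showed in either direction.

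The diet group (HFHSD) holds 6 animals and the control group (CD) 3, with 1 array per animal. Pigs of both sexes, not castrated, entered the study at 6 months of age and were kept on their diet for 23 months. The HFHSD feed was 53% basal diet, 37% sucrose and 10% lard, and the CD animals ate standard pig chow. Both groups were given restricted meals and were fasted overnight before tissue was taken. Which animals were male is not labelled, and the labels count the CD animals as 3 in one place and 6 in another, with 3 CD arrays present.

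Cathepsins are the main proteases of the lysosome, the acidic compartment in which cells break down proteins delivered by endocytosis and autophagy. They are made as inactive precursors, are carried to the lysosome largely by mannose 6-phosphate receptors, and become active in its low pH. CTSB, CTSH, CTSK, CTSL and CTSS are cysteine proteases of the papain family, whereas CTSD is an aspartic protease. In skeletal muscle these enzymes take part in turnover through autophagy, and several of them are also abundant in macrophages.

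Signal strength differed among the arrays. The share of probes well above background was between 51.2% and 68.9% on 8 arrays and 36.8% on CD 1. HFHSD 5 and HFHSD 6 lie on slide 1 and were scanned on a different day from the other 7 arrays. Slide 2 carries HFHSD 1, HFHSD 3, HFHSD 4 and CD 1, and slide 3 carries HFHSD 2, CD 2 and CD 3. Muscle identity was clear in every array: ACTA1, skeletal muscle actin, averaged 11.06 ± 0.10 (SD, n = 3) over the CD arrays and 10.87 ± 0.17 (SD, n = 6) over the HFHSD arrays, and CKM, muscle creatine kinase, differed by -0.17 (limma adjusted p = 0.738). With normexp background correction and percentile scaling these bright genes differed by 0.42 and 0.35, so that setting moved their sign as well. These levels, and all others given here, are log2 processed signal minus the 75th percentile of the same array. A level of 0 equals that percentile, and levels of different probes cannot be set against each other, so the cathepsins were not ranked by abundance. Over the whole array, limma called 344 of 27922 tested probes at an adjusted p under 0.05, of which 194 were higher and 150 lower in HFHSD.

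All 9 cathepsin probes were well above background on all 9 arrays. By limma, 0 of 9 passed an adjusted p of 0.05, where 1.23% of all tested probes did (0.695% higher and 0.537% lower), and their adjusted p ran from 0.239 to 0.980. At an unadjusted p under 0.05 there were 2 of 9, both probes of CTSH, beside 16.5% of all tested probes. The difference, HFHSD minus CD, was below 0 for 7 probes and above 0 for 2, with a median of -0.35. By the brightest probe of each gene, 3 of the 4 cathepsin genes were lower, where 1504 of all 2613 named genes were. Groups that did not overlap were found for 1 of 9 probes, or 11.1%, with 10.9% of all tested probes in either direction, 6.11% with HFHSD below CD and 4.8% with HFHSD above. The count of separated probes was therefore near the background.

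**Figure D1:**
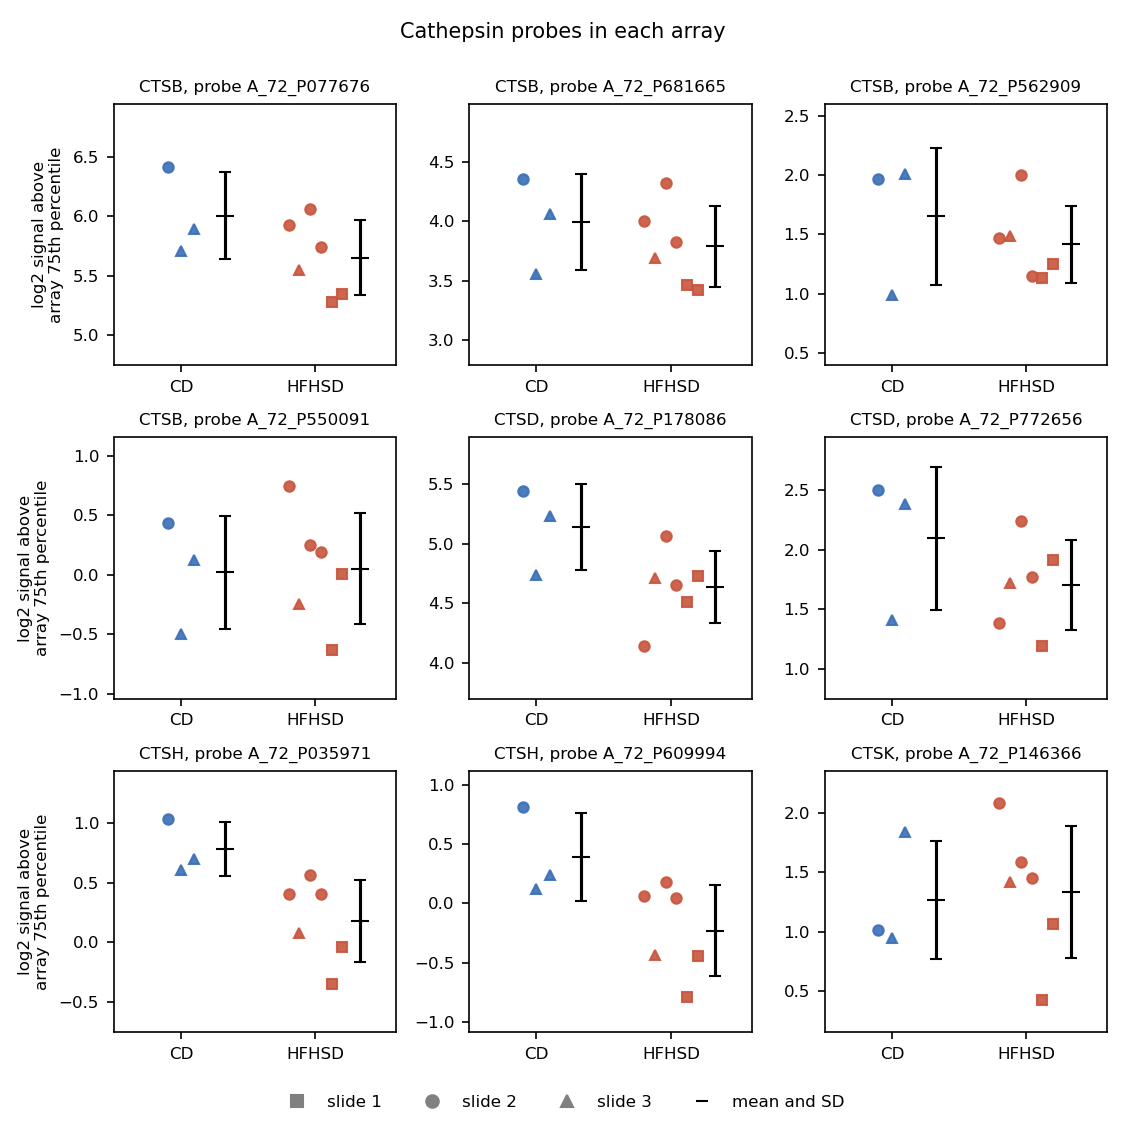
Level of the 9 cathepsin probes in each array, as log2 signal above the array's 75th percentile, with CD in blue, HFHSD in red, marker shape for the slide, and the mean and SD beside each group. CTSH probe A_72_P035971 is the only panel in which all 6 HFHSD arrays lie under the lowest CD array, and the slide 1 arrays are the lowest pair in the panels of CTSB probes A_72_P077676 and A_72_P681665 and of both CTSH probes.

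CTSH, an aminopeptidase that trims the ends of proteins and peptides, had the lowest p of the members. Its brighter probe, A_72_P035971, read 1.04, 0.61 and 0.70 in CD 1 to CD 3. In HFHSD 1 to HFHSD 6 it read 0.41, 0.08, 0.57, 0.41, -0.36 and -0.04. All 6 HFHSD arrays were below the lowest CD array, with HFHSD 5 and HFHSD 6 at the bottom. CD averaged 0.78 ± 0.23 (SD, n = 3) and HFHSD 0.18 ± 0.35 (SD, n = 6). The difference was -0.61 (SE 0.24, 95% interval -1.14 to -0.07), a ratio of 0.657, with an unadjusted limma p of 0.0298 and an adjusted p of 0.239. An exact two-sided permutation test of this probe over all 84 splits of the arrays gave p = 0.0238, where 0.0119 is the smallest it can give. That p was 0.0833 with normexp and percentile scaling. Without HFHSD 2, HFHSD 5, HFHSD 6 or any CD array it was between 0.0536 and 0.107. Leaving out an array also leaves fewer splits, so the smallest possible p is then higher than 0.0119. The difference was -0.59, -0.50 and -0.56 without HFHSD 2, HFHSD 5 and HFHSD 6. It was -0.48, -0.69 and -0.64 without CD 1, CD 2 and CD 3. The second probe, A_72_P609994, differed by -0.62 (SE 0.27, limma adjusted p = 0.288) and followed the first with r = 0.99 over the 9 arrays. Within slides the brighter probe differed by -0.58 on slide 2, where CD 1 is the sole control. On slide 3, where HFHSD 2 is the sole HFHSD array, it also differed by -0.58. Slide 1 holds no CD array, and its part in the difference was not tested. The difference of the brighter probe over all arrays ranged from -0.69 to -0.36 over the 23 other ways of processing. The value nearest to 0 came from normexp background correction with percentile scaling.

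CTSD, the aspartic protease of the lysosome, came next. Probe A_72_P178086 read 5.45, 4.74 and 5.23 in CD 1 to CD 3, against 4.14, 4.71, 5.07, 4.65, 4.51 and 4.73 in HFHSD 1 to HFHSD 6. HFHSD 3 lay among the CD arrays and the other 5 HFHSD arrays lay just under CD 2 or lower, with HFHSD 1 the lowest. The means were 5.14 ± 0.36 (SD, n = 3) and 4.63 ± 0.30 (SD, n = 6). The difference of -0.50 (SE 0.24, 95% interval -1.04 to 0.03) did not pass the test (limma unadjusted p = 0.0627, adjusted p = 0.337), and the exact permutation test gave p = 0.0714. The exact permutation p depended on single arrays: it was 0.0179 without HFHSD 3, 0.0357 without CD 2 and 0.25 without CD 1. Probe A_72_P772656 differed by -0.40 (SE 0.31, limma adjusted p = 0.597) and correlated with the first at r = 0.89. The difference of probe A_72_P178086 was -0.82 on slide 2, where CD 1 is the sole control, and -0.28 on slide 3. With normexp background correction it was -0.01 after percentile scaling and -0.37 after quantile normalisation.

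CTSB, a cysteine protease with both endopeptidase and carboxypeptidase activity, had the most probes. The brightest, A_72_P077676, read 6.41, 5.71 and 5.89 in CD 1 to CD 3. The 6 HFHSD arrays read 5.93, 5.55, 6.06, 5.74, 5.28 and 5.34, so that 3 of them were below every CD array and 3 lay among the CD arrays. The means were 6.00 ± 0.36 (SD, n = 3) and 5.65 ± 0.32 (SD, n = 6), a difference of -0.35 (SE 0.25, 95% interval -0.90 to 0.19) that did not pass (limma adjusted p = 0.538, exact permutation p = 0.202). The other probes differed by -0.20 (A_72_P681665), -0.24 (A_72_P562909) and 0.03 (A_72_P550091), with limma adjusted p of 0.777, 0.758 and 0.980. Probes of CTSB tracked each other less closely than those of CTSH, with r between 0.56 and 0.94. The difference kept its sign in 22 of 23 alternatives, some of which, such as a changed filter, cannot move it. Normexp gave 0.17 with percentile scaling, the setting that also turned ACTA1 and CKM upward, and -0.18 with quantile normalisation, and leaving out CD 1 shrank the difference to -0.15.

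CTSK, a collagen-degrading cysteine protease best known from osteoclasts, showed no separation of the diets. Its single probe read 1.02, 0.94 and 1.84 in CD 1 to CD 3 and 2.08, 1.42, 1.58, 1.45, 0.42 and 1.07 in HFHSD 1 to HFHSD 6. The HFHSD arrays contained both the highest and the lowest of all 9 values. The means were 1.27 ± 0.50 (SD, n = 3) and 1.34 ± 0.56 (SD, n = 6). The difference was 0.07 (SE 0.35, limma adjusted p = 0.953), and its 95% interval of -0.72 to 0.86 spans changes of either sign larger than those measured for CTSH. Leaving out 1 array at a time moved it between -0.09 and 0.36, below 0 without HFHSD 1, CD 1 or CD 2. Of 8 genes listed as osteoclast markers, 4 were measured, 3 lower and 1 higher. Their differences ran from -0.91 to 0.75, with a median of -0.41 and 0 called by limma.

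**Figure D2:**
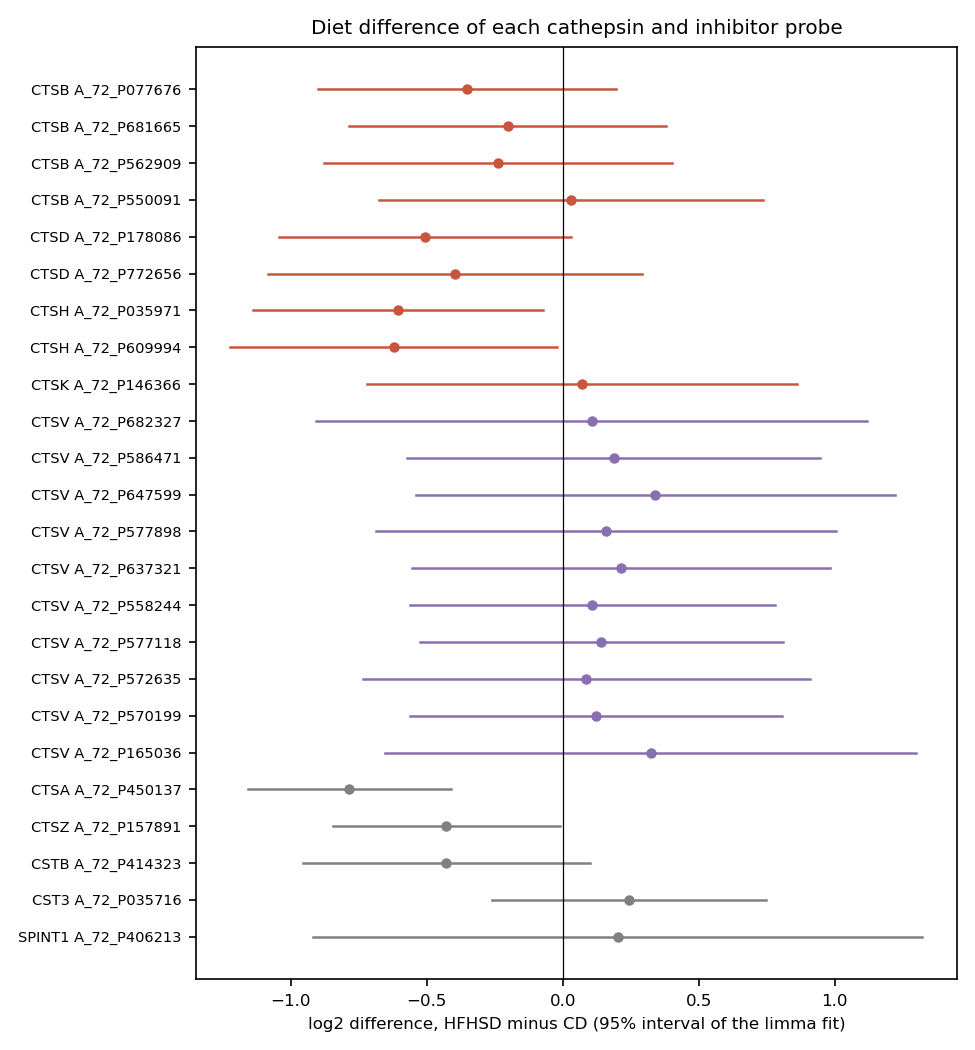
Diet difference of each cathepsin probe (red), each CTSV probe (purple) and the brightest probe of the related peptidases and inhibitors (grey), as log2 HFHSD minus CD with the 95% interval of the limma fit. Intervals of the CTSB, CTSD, CTSK and CTSV probes include 0, those of both CTSH probes end just under 0, and the CTSA interval lies farthest below 0.

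CTSL could only be approached through a relative. The RefSeq table gives CTSL, CTSL1 and CTSL2 as older names of CTSV (NM_213892), a cysteine protease close to CTSL in sequence, and also holds CTSL as a gene of its own. The array has 10 probes for CTSV, and all were tested. The brightest, A_72_P682327, read 6.38, 5.33 and 6.03 in CD 1 to CD 3 and 6.89, 5.60, 6.30, 6.88, 5.34 and 5.11 in HFHSD 1 to HFHSD 6, so HFHSD 1 and HFHSD 4 were the only arrays above every control. The difference was 0.11 (SE 0.45, limma adjusted p = 0.944). All 10 probes were higher on average in HFHSD, by 0.09 to 0.34, with limma adjusted p of 0.748 to 0.944 and 0 called. The probes share 1 transcript and correlated at r of 0.90 or more, so they do not count as separate evidence. Without HFHSD 1, HFHSD 4 or CD 2 the brightest probe's difference was below 0, at -0.07, -0.07 and -0.19.

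**Figure D3:**
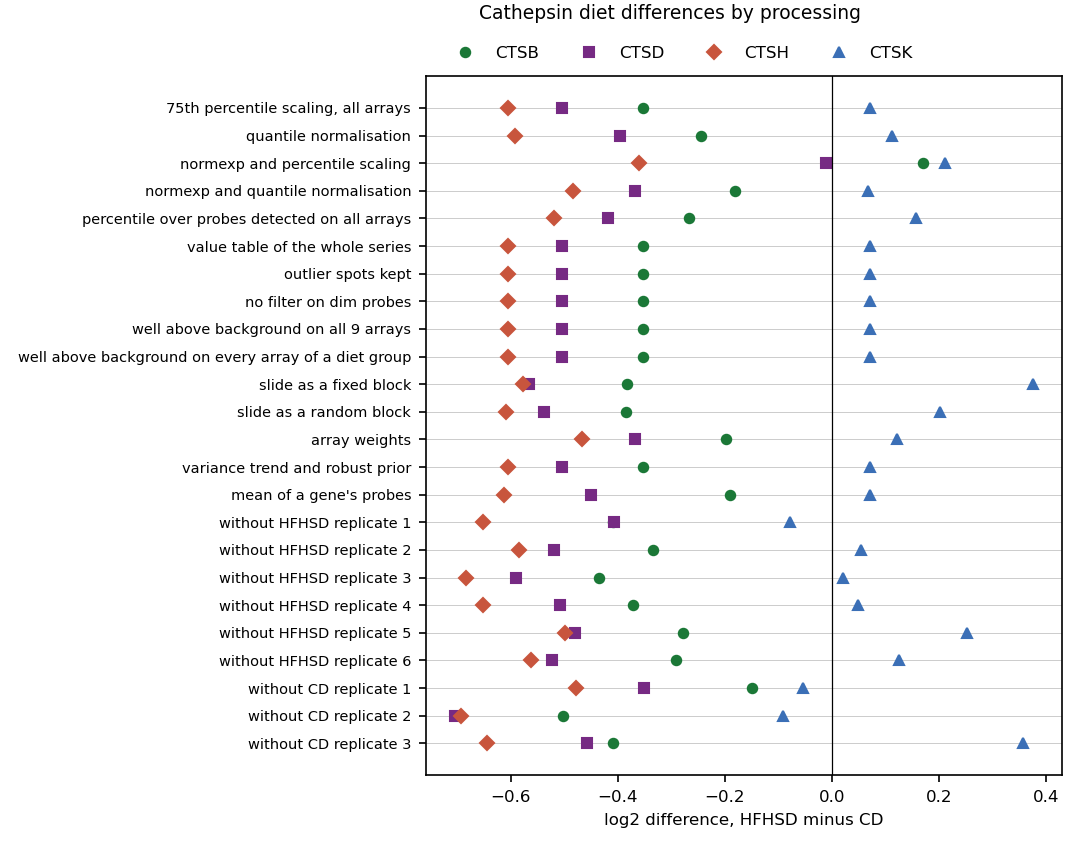
Log2 difference, HFHSD minus CD, of the brightest probe of CTSB, CTSD, CTSH and CTSK (horizontal axis) under the 75th percentile scaling and each of 23 alternatives (rows); at the row without HFHSD replicate 1 the CTSB marker lies under that of CTSD. CTSH stays below 0 throughout, between -0.69 and -0.36, CTSB crosses 0 with normexp and percentile scaling, and CTSK crosses 0 when HFHSD 1, CD 1 or CD 2 is left out.

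Among the 6 pairs of the 4 measured genes, CTSB and CTSH had the highest correlation over the 9 arrays. Their Pearson r was 0.92 (exact permutation p = 0.0006, adjusted over 6 pairs 0.0035). Their Spearman rho was 0.82 (exact permutation p = 0.0108, adjusted 0.0646). The r was 0.82 without HFHSD 5 and CD 1, the arrays farthest from the median of CTSB, 0.85 over the 7 arrays of the later scan day and 0.95 within the 6 HFHSD arrays. CTSD and CTSH had r = 0.64 (exact permutation p = 0.0622, adjusted 0.187) and rho = 0.75 (adjusted 0.0765). CTSB and CTSD had r = 0.58 (adjusted 0.202), which dropped to 0.16 without HFHSD 5 and CD 1, and the r of CTSD and CTSH was 0.75 without HFHSD 1 and CD 1. Over the 7 arrays of the later scan day CTSD had r = 0.58 with CTSB and 0.70 with CTSH. Within the 6 HFHSD arrays these were only 0.11 and 0.19. No pair with CTSK passed this test: its r was 0.43 with CTSB, 0.41 with CTSH and -0.08 with CTSD, with adjusted exact permutation p of 0.333, 0.333 and 0.844. These values rest on few arrays: r with CTSD was 0.80 without HFHSD 1 and CD 1, and r with CTSB was 0.67 and with CTSH 0.34 without HFHSD 5 and CD 1. Over the 7 arrays of the later scan day its r with CTSB and CTSH was -0.11 and -0.34, whereas within the 6 HFHSD arrays it was 0.84 and 0.87. All 9 arrays share the percentile scaling, and each slide holds too few arrays for a value of its own. The permutation tests shuffled all 9 arrays freely, taking no account of diet, slide or scan day. Of 2609 other named genes, 54 had r above 0.9 with CTSB and 81 with CTSH. The r of CTSB and CTSH was therefore not particular to the cathepsins.

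**Figure D4:**
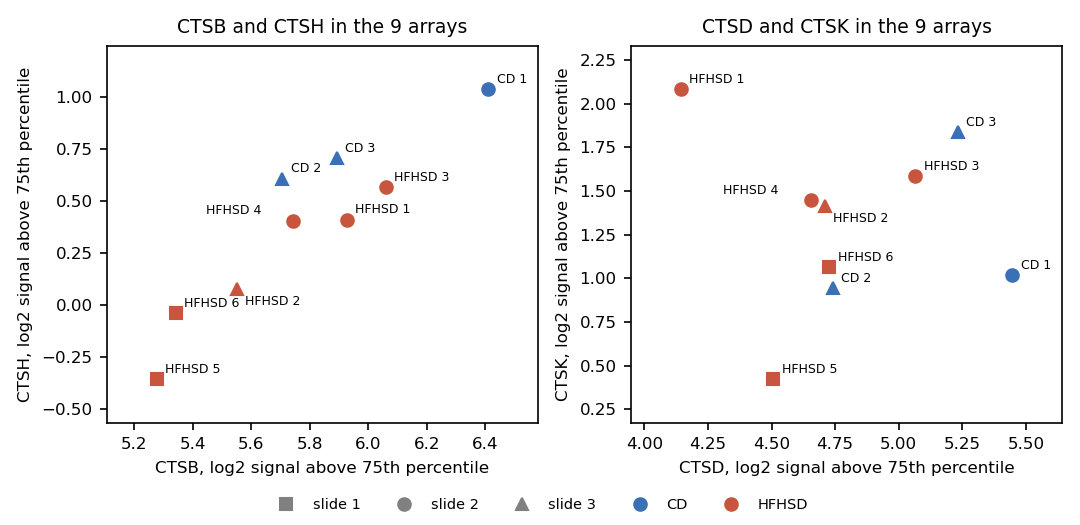
Levels of CTSB against CTSH (left) and of CTSD against CTSK (right) in the 9 arrays, as log2 signal above the array's 75th percentile, with colour for the diet and shape for the slide. CTSB and CTSH line up with r = 0.92, from HFHSD 5 at the bottom to CD 1 at the top, while CTSD and CTSK have r = -0.08 over all 9 arrays and 0.80 without HFHSD 1, highest for CTSK and lowest for CTSD, and CD 1.

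A search over 2609 other named genes for the patterns most like each cathepsin, by Pearson r over the 9 arrays, put JTB (0.99), FDX1 (0.98) and RPS28 (0.98) beside CTSB. For CTSH these were UBE2L3 (0.97), ARL1 (0.96) and RPSA (0.96). CTSD lay closest to ACTA2 (0.95), MRPS11 (0.94) and ACTC1 (0.94), of which ACTA2 and ACTC1 are smooth and cardiac muscle actins. CTSK lay closest to TFAM (0.95), HIF1A (0.95) and FAS (0.93). Likeness of this degree was common for CTSB and CTSH, with 54 and 81 genes above r = 0.9, and rarer for CTSD and CTSK, with 7 and 10. These r values describe 9 arrays that share scaling and slides and carry no test.

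Of 14 other lysosomal peptidases listed, 3 were measured, and limma called 0 of them, where it called 0.995% of the 2613 named genes by their brightest probe. CTSA, a serine carboxypeptidase that also protects neuraminidase and beta-galactosidase in the lysosome, was the nearest to a call. Its brightest probe, A_72_P450137, read 5.31, 5.53 and 5.67 in CD 1 to CD 3, and 4.62 to 4.93 with a median of 4.68 in the 6 HFHSD arrays. The groups were far apart relative to their spread, 5.50 ± 0.18 (SD, n = 3) against 4.72 ± 0.12 (SD, n = 6). The difference of -0.78 (SE 0.17) had a limma adjusted p of 0.0572, and the second probe differed by -1.002 (adjusted p = 0.0713). It passed in 7 of 23 alternatives, over which the adjusted p ran from 0.0222 to 0.657, and the highest p came with normexp and percentile scaling, where the difference was -0.31. CTSZ, a carboxypeptidase of the papain family, also had groups that did not overlap, with -0.24 ± 0.10 (SD, n = 3) for CD against -0.66 ± 0.22 (SD, n = 6) for HFHSD. The CTSZ groups nearly touched, with the highest HFHSD array at -0.351 and the lowest CD array at -0.335. Groups did not overlap for 341 of the 2613 named genes. The CTSZ difference was -0.43 (SE 0.19, limma adjusted p = 0.291). CTSV, given above, was the third.

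Of 9 genes listed as cystatins and other protease inhibitors 3 were measured, and 0 passed by limma; only CSTB and CST3 of these are inhibitors of cysteine cathepsins. CSTB, the cytosolic stefin that binds cysteine cathepsins outside the lysosome, averaged 4.56 ± 0.27 (SD, n = 3) on chow and 4.13 ± 0.33 (SD, n = 6) on the diet. Its difference was -0.43 (SE 0.24, limma adjusted p = 0.418), and 0.14 with normexp and percentile scaling. CST3, the secreted cystatin C, differed by 0.24 (SE 0.22, limma adjusted p = 0.670). SPINT1, an inhibitor of serine proteases at the cell surface, differed by 0.20 (SE 0.50, limma adjusted p = 0.894) and was well above background on 2 of 3 CD arrays.

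Other parts of the lysosome gave few calls. Of 31 listed hydrolases and activators 12 were measured, 9 lower and 3 higher, with a median of -0.19 and 0 called. NPC2, which binds cholesterol in the lysosomal lumen, had the lowest p of the list at -0.86 (SE 0.20, limma adjusted p = 0.0656), from a CD mean of 3.38 ± 0.26 (SD, n = 3) and an HFHSD mean of 2.52 ± 0.20 (SD, n = 6). PSAP, the precursor of the saposins, differed by 0.17 (SE 0.25, limma adjusted p = 0.810). Of 33 listed genes for the membrane, for sorting and for acidification 11 were measured, 7 lower and 4 higher, with a median of -0.45 and 0 called by their brightest probe. The medians over all 2613 named genes and over the 4 cathepsin genes were -0.08 and -0.43. Of the 2613 named genes 1504 were lower and 1109 higher, so a majority of lower genes was not particular to these lists.

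SCARB2, the membrane protein LIMP-2 that carries glucocerebrosidase to the lysosome, was the only gene of these lysosomal lists with a called probe. Limma called 1 of its 6 probes, A_72_P630319, which is not the brightest. On that probe the CD arrays averaged 4.03 ± 0.10 (SD, n = 3) and the HFHSD arrays 3.03 ± 0.24 (SD, n = 6). These means differ by -0.9996 (SE 0.19, limma adjusted p = 0.0416). That call held in 8 of 22 alternatives and was lost when any single array was left out, with adjusted p of 0.0567 to 0.206. The brightest probe differed by -0.90 (SE 0.19, limma adjusted p = 0.0542) and passed in 6 of 23 alternatives, over which the adjusted p ran from 0.0145 to 0.609. All 6 SCARB2 probes were lower in HFHSD, and those not called had limma adjusted p of 0.0542 to 0.0898. The lysosomal membrane proteins LAMP1 and LAMP2 differed by 0.01 and -0.54, with limma adjusted p of 0.989 and 0.365. The mannose 6-phosphate receptors M6PR and IGF2R, which sort newly made cathepsins, differed by -0.52 and 0.24, with adjusted p of 0.579 and 0.790. The M6PR difference was 0.29 on slide 2 and -0.26 on slide 3, and with slide as a fixed block it turned to 0.031. Of 28 autophagy genes listed 6 were measured, 5 lower and 1 higher, with a median of -0.33 and 0 called by limma.

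**Figure D5:**
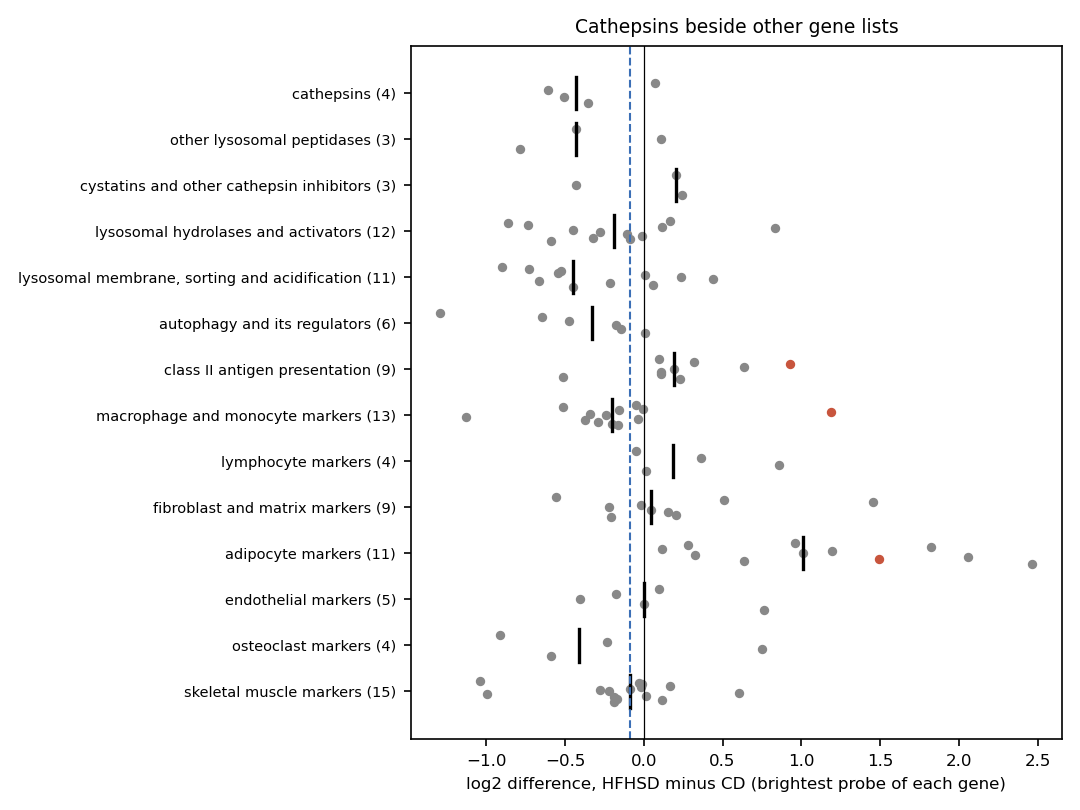
Log2 difference, HFHSD minus CD, of each measured gene by its brightest probe (points, red where limma called it), by gene list with the number measured in brackets, with a black bar for each list's median and a dashed line for the median of all named genes. The cathepsin median of -0.43 lies near those of the other lysosomal peptidases (-0.43) and of the lysosomal membrane list (-0.45), while the adipocyte median is 1.01.

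Markers of other cell types were read beside the cathepsins, since in whole muscle fewer cells of a type and less RNA per cell cannot be told apart. Of 21 macrophage and monocyte markers 13 were measured, 12 lower and 1 higher in HFHSD, with a median of -0.20. Their log2 summed level was 4.51 to 5.24 in CD and 4.11 to 5.31 in HFHSD, so the groups overlapped. In such sums, here and below, the brightest probes weigh most, so they do not measure the amount of a cell type. FCGR3A, an Fc receptor of macrophages and natural killer cells, rose by 1.19 by its brightest probe (SE 0.21, limma adjusted p = 0.0338). That call was lost when any single array was left out (adjusted p 0.0515 to 0.191). All 3 FCGR3A probes were called with all arrays in. CD163, a haemoglobin scavenger receptor, differed by -1.13 (SE 0.55, adjusted p = 0.347), and CD14, a receptor for bacterial lipopolysaccharide, by -0.04 (SE 0.28, adjusted p = 0.972). For antigen presentation by class II molecules, a route in which cathepsins cut the invariant chain and antigens, 9 of 11 listed genes were measured and 8 were higher. SLA-DQB1, a class II chain, rose by 0.93 by its brightest probe (SE 0.17, limma adjusted p = 0.0371), again not past the test when any single array was left out (0.0515 to 0.202). Of its 4 probes 1 was called and 0 were lower in HFHSD. CD74, the invariant chain, differed by 0.23 (adjusted p = 0.653) and IFI30, a lysosomal thiol reductase, by -0.51 (adjusted p = 0.527).

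Adipocyte markers differed most: 11 of 12 were measured and all 11 were higher, with a median of 1.01. CIDEA, a lipid droplet protein, rose by 1.49 (SE 0.28, limma adjusted p = 0.0378), and the call held without HFHSD 4 and was lost without any other array. ADIPOQ, adiponectin, differed by 2.47 (SE 0.71, adjusted p = 0.113). Their log2 summed level was 6.54 to 6.92 in CD and 6.86 to 8.55 in HFHSD. Fibroblast and matrix markers, of which 9 of 15 were measured, had a median of 0.04 and log2 summed levels of 6.61 to 7.35 in CD and 6.62 to 7.31 in HFHSD, with 0 called. Skeletal muscle markers, 15 of 18 measured, had a median of -0.09 and 0 called. Single muscle genes differed by -1.04 to 0.61, with 11 lower and 4 higher. The part of these cell types in the cathepsin values was not tested.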

How the data were processed

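Intensities are those deposited by the authors: per the file headers, 1-colour scanner files of Agilent Feature Extraction 10.7.3.1 with the background-subtracted processed signal of each spot. Control spots and outlier spots were left out and spots of a probe averaged. Levels are the log2 of this signal less the 75th percentile of its array. Probes well above background on at least 3 arrays were tested with limma 3.58.1 (lmFit, eBayes, R 4.3.3), with Benjamini-Hochberg adjustment over 27922 probes. A gene is represented by its brightest probe. Probe accessions were named through the RefSeq gene table (6891 probes, 3196 genes). The build behind the array's probes is not given in the sources used here, and the gene table (Sscrofa11.1) served for names only. The test was checked on simulated data. Slide, normalisation, background correction (on median signals, since no mean signal column was used), filters and single arrays were varied as 23 alternatives. Labels do not say how replicates relate beyond 1 array per animal, and replicate numbers follow accession order. Members and gene lists were chosen with earlier results of these data known. Named are all cathepsins, peptidases and inhibitors measured, called genes of the other lists, a fixed set of examples (1 gene is not reported here), and the 3 genes most like each cathepsin.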

Additional observations from a re-analysis of the deposited data

How the results depend on the processing

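None of CTSB, CTSD, CTSH and CTSK by their brightest probe was called in any of the 23 alternatives, and CTSD and CTSH stayed below 0 in all of them. Not all 23 were able to move a difference. Those that changed only the filter or the variance model left every probe's difference as it was. The value table of the series equals the scanner signal, so that alternative repeats the fit. The sign turned with normexp and percentile scaling for CTSB (0.17), for its probes A_72_P681665 (0.22) and A_72_P562909 (0.14), and for CSTB (0.14), ACTA1 (0.42), CKM (0.35), IGF2R (-0.019), CD14 (0.053) and SPINT1 (-0.15). CTSB probe A_72_P550091 turned to -0.021 with normexp and quantile normalisation, -0.051 with slide as a fixed block and -0.029 with slide as a random block. Differences that also turned were those of LAMP1 (-6.8e-05 with normexp and quantile normalisation, -0.11 and -0.039 with slide as a fixed and a random block, -0.023 with array weights), SPINT1 (-0.33 and -0.020 with slide as a fixed and a random block, -0.044 with array weights), M6PR (0.031 with slide as a fixed block), ACTA1 (0.041 with normexp and quantile normalisation) and IGF2R (-0.047 by the mean of its probes). CD14 turned to 0.026 with normexp and quantile normalisation, 0.050 with the percentile over probes detected on all arrays, 0.041 with array weights and 0.16 by the mean of its probes. Leaving out 1 array at a time gave -0.23 to 0.24 for that probe, -0.091 to 0.36 for CTSK, -0.19 to 0.34 for CTSV, -0.076 to 0.36 for SPINT1, -0.021 to 0.36 for PSAP, -0.054 to 0.097 for LAMP1, -0.28 to 0.099 for CD14 and -0.28 to 0.030 for CKM. The same gave -0.50 to -0.15 for CTSB, -0.70 to -0.35 for CTSD and -0.69 to -0.48 for CTSH. The calls of FCGR3A, SLA-DQB1 and CIDEA held in 12, 10 and 12 of the 23 alternatives. With 1 array left out, and so fewer splits, the exact permutation p ran from 0.0357 to 0.107 for CTSH and from 0.0179 to 0.25 for CTSD. Calls over all probes numbered 344, and 88 with normexp and percentile scaling (63 higher, 25 lower), 856 with normexp and quantile normalisation, 66 with no filter, 736 with probes above background on all 9 arrays (281 higher, 455 lower), 887 with probes above background on every array of a diet group, 84 with slide as a fixed block, 677 with slide as a random block, 1205 with array weights and 612 with a variance trend. Without 1 array they numbered 25 to 325. Normexp and percentile scaling moved the median of all probes from -0.02 to -0.17. The cause was not tested. No paired analysis was run, since each animal gave 1 array and the labels pair no HFHSD animal with a CD animal. The number of arrays limits the precision, and 3 controls, of which CD 1 had the weakest signal, carry every difference.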

Other observations

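Markers of endothelial cells and lymphocytes were also read in these arrays. Of 10 endothelial markers 5 were measured, with a median difference of 0.001 and 0 called by limma. Of 14 lymphocyte markers 4 were measured and 0 called, and 7 more had probes that were too dim to test. The log2 summed level of the 4, in which the brightest probe, that of GZMB, weighs most, was 0.51 to 0.73 in CD and 0.58 to 1.52 in HFHSD.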
